A study of Mus musculus with 5 samples.

Results

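The mitochondrial carriers of the SLC25 family are membrane proteins, most of them in the inner mitochondrial membrane, that move metabolites, nucleotides, cofactors and inorganic ions between the cytosol and the matrix. Every row of the deposited expression table whose symbol starts with Slc25a and a digit was taken, which gave 47 carriers of 23997 rows. They are described in whole kidneys of mice aged 8 weeks, in 3 libraries whose genotype is given as uninduced control and 2 whose genotype is given as Pkd1 knockout. The libraries are called control 0, 1 and 2 and knockout 0 and 1, and values are given in that order throughout. Sample titles use SKO for the knockout, while the design text of the series writes PkdTKO, and no source used here explains either name, the agent of the induction, a Cre driver, the strain, the sex or whether 1 library stands for 1 animal. The series asked about metalloproteinases, the basement membrane of tubules and cystic dilation. Values are FPKM (fragments counted per kilobase of a transcript and relative to all mapped fragments), so levels of different carriers are compared per length.

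Most carriers are exchangers, which swap a solute on one side of the membrane for another on the other side. Kidney tubules reabsorb solutes at a high energy cost, and carriers link their respiration to the cytosol by exchanging ADP for ATP, by bringing in phosphate, and by passing dicarboxylates, amino acids, acylcarnitines and cofactors. Carriers are made in the cytosol and reach the inner membrane through the TOM pore, small TIM chaperones and the TIM22 complex.

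The sequences at the gene starts are shown for Slc25a10 and Slc25a45, which fell together in the knockout libraries, and for Slc25a39, which came closest to passing. Slc25a51, the other carrier that fell, has no entry among the 36 of 47 carriers with one. Each runs 5' to 3' from 250 bases before the start to 50 after it (RefSeq, GRCm38.p6). Capitals mark letters found by a search of both strands for the GC box GGGCGG, the nuclear receptor half-site AGGTCA, the estrogen-related receptor element TCAAGGTCA (which contains that half-site), the E-box CACGTG and the NRF1 element.
Slc25a10, chr11:120491587-120491886, plus strand: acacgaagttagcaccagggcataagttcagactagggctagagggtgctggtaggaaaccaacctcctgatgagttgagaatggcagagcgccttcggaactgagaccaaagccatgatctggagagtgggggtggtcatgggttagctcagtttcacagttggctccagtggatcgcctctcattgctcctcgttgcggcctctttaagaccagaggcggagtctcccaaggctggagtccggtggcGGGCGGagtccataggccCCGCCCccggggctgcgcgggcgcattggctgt
Slc25a45, chr19:5877572-5877871, plus strand: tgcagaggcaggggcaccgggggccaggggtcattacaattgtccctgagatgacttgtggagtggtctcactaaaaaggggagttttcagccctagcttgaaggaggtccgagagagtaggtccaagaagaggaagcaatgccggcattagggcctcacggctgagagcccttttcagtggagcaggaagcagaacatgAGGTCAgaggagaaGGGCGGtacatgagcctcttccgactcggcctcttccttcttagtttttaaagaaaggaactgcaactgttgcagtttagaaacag
Slc25a39, chr11:102407468-102407767, minus strand: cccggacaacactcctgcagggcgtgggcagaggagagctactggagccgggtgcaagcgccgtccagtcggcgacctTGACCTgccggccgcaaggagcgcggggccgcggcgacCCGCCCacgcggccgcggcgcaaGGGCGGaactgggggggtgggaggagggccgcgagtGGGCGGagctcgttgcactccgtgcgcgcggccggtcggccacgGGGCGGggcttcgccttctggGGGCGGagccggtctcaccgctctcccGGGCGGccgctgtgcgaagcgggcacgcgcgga

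The window of Slc25a10 held 2 GC boxes and no other motif searched. That of Slc25a45 held 1 half-site and 1 GC box, and that of Slc25a39 held 1 half-site, on its other strand, and 6 GC boxes. GC boxes were in 38 of the 46 windows of carriers and in 35.7% of all 32851 windows of the same length, and half-sites in 4 of 46 and 16.3%. The NRF1 element was in 2 of 46 and 4.60%, the E-box in 8 of 46 and 7.15%, and the estrogen-related receptor element in 0 of 46 and 0.423%. GC content was 59.7%, 52.7% and 77.3% in the windows of Slc25a10, Slc25a45 and Slc25a39, and the median of all windows was 52.7%. A match is a run of letters, not a binding site.

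Before the results, several facts about the libraries are needed. Pkd1, the targeted gene, was at 3.22, 3.51 and 3.49 FPKM in the controls and 2.72 and 3.60 in the libraries labelled knockout 0 and 1 (log2 -0.091, limma adjusted p = 0.646), so its level does not check the labels, and every direction is that of libraries labelled as knockouts. Xist, the RNA of the silenced X chromosome, was at 0.0222 to 0.0275 FPKM in the controls, with 30.8 for knockout 0 and 80.3 for knockout 1, and 4 Y-linked genes averaged 39.1% and 0.0234% of their control mean in knockout 0 and 1. Knockout 0 thus held RNA of both kinds, and no source used here says whether it was a pool, which bears on every value given for it. Genotype label and sex of the RNA cannot be told apart. Marker genes of kidney cell types differed as well. The 4 injury markers summed to 8.87 to 11.6 FPKM in the controls, with 305.3 for knockout 0 and 11.7 for knockout 1, and the 5 macrophage markers, all above the controls in both knockout libraries, to 56.6 to 65.5, 234.3 and 88.9. All 4 intercalated cell markers were under every control in both knockout libraries, and their sum was 106.9 to 124.8 FPKM in the controls, with 55.98 for knockout 0 and 86.8 for knockout 1. Of 10 proximal tubule markers Slc34a1 and Lrp2 were listed at 0 in all 5 libraries. Acsm2, and Umod of the thick ascending limb, were listed at 0 in the controls only, at 384.6 and 784.3 FPKM in knockout 0 and 265.8 and 1144 in knockout 1. The other 3 markers of that limb were above 0 in every library. Among them, Slc12a1 was at 291.5, 195.7 and 246.5 FPKM in the controls and 114.3 and 294.3 in the knockout libraries. The source of the zeros was not tested, and whether genes were counted alike in both groups is not known. The 7 proximal tubule markers above 0 in every library did not move together: Cubn was above every control in both knockout libraries, Slc22a6, Miox and Slc7a13 were below, and Slc5a2, Slc5a12 and Slc13a3 were neither. Their sum, of which Miox was the largest part, was 2902 to 3334 FPKM in the controls, with 2097 for knockout 0 and 1966 for knockout 1. The part of these cells in the results below was not tested, and in a whole kidney fewer cells of a type and less RNA per cell cannot be told apart.

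The carriers spanned a wide range of levels. Of the 47 members, 40 had a mean of at least 1 FPKM over the 5 libraries and were tested. The other 7, Slc25a2, Slc25a18, Slc25a31, Slc25a41, Slc25a43, Slc25a53 and Slc25a54, stayed at or below 0.731 FPKM in every library, and Slc25a54 was listed at 0 in all 5. Slc25a5, Slc25a3, Slc25a39 and Slc25a4 were above 100 FPKM in every library, and together they made up 68.5% of the family's summed FPKM in the controls. In the order Slc25a5, Slc25a3, Slc25a39, Slc25a4, Slc25a11, Slc25a10 and Slc25a1, the control values of each gene lay above all those of the next. Below them, the control values of Slc25a1, Slc25a17, Slc25a51 and Slc25a15 overlapped from each gene to the next, so their order is not settled.

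Summed over all 47 carriers, FPKM was lower in both knockout libraries than in any control. The sums were 3745, 3646 and 3656 in the controls and 3122 and 3295 in the knockout libraries, which is 84.8% and 89.5% of the control mean. As a share of the FPKM of a whole library the family took 0.722% to 0.739% in the controls, with 0.633% for knockout 0 and 0.712% for knockout 1. Without Slc25a5, the most abundant member, the knockout sums were 89.8% and 91.0% of the control mean.

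Of the 40 tested carriers 3 fell, 0 rose and 37 did not pass (limma on log2(FPKM + 1), Benjamini-Hochberg adjusted p under 0.05 over 12640 genes). The 3 that fell were Slc25a10, Slc25a51 and Slc25a45. Over all tested genes 6.34% passed (2.73% higher and 3.62% lower), so the 7.5% among the carriers is near the background and is not a result about the family. At an unadjusted p under 0.05 there were 12 carriers, or 30%, against 29.1% of all genes. Of the 40, 2 were higher (12.5% of all genes) and 10 lower (16.6% of all genes). In 19 carriers, or 47.5%, the groups did not overlap, against 48.2% of all genes. Higher were 3 of 40 (21.9% of all genes), and lower were 16 of 40, or 40% (26.3% of all genes). The median log2 difference was -0.089 over the tested carriers and -0.016 over all tested genes, and 26 of 40 carriers had a negative one. Of all genes 345 rose and 457 fell, and with each library rescaled to a common sum (as TPM) 441 and 255 did, with Slc25a10 then the only carrier to pass. Without control 0, 1 and 2 the carriers that passed were 0, 2 (Slc25a10 and Slc25a42) and 0, and all genes that passed 37, 155 and 36. The log2 differences of the 3 carriers stayed about as large in these fits, at -0.78 to -0.69 for Slc25a10, -0.50 to -0.41 for Slc25a51 and -0.41 to -0.34 for Slc25a45. Fits with 1 knockout library take the spread from the controls alone. Without knockout 0, 3 carriers passed (Slc25a10 lower, Slc25a24 and Slc25a35 higher) and 1054 genes in all. Without knockout 1 it was 6 carriers (Slc25a10, Slc25a51, Slc25a45, Slc25a5 and Slc25a38 lower, Slc25a24 higher) and 2599 genes.

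**Figure D1:**
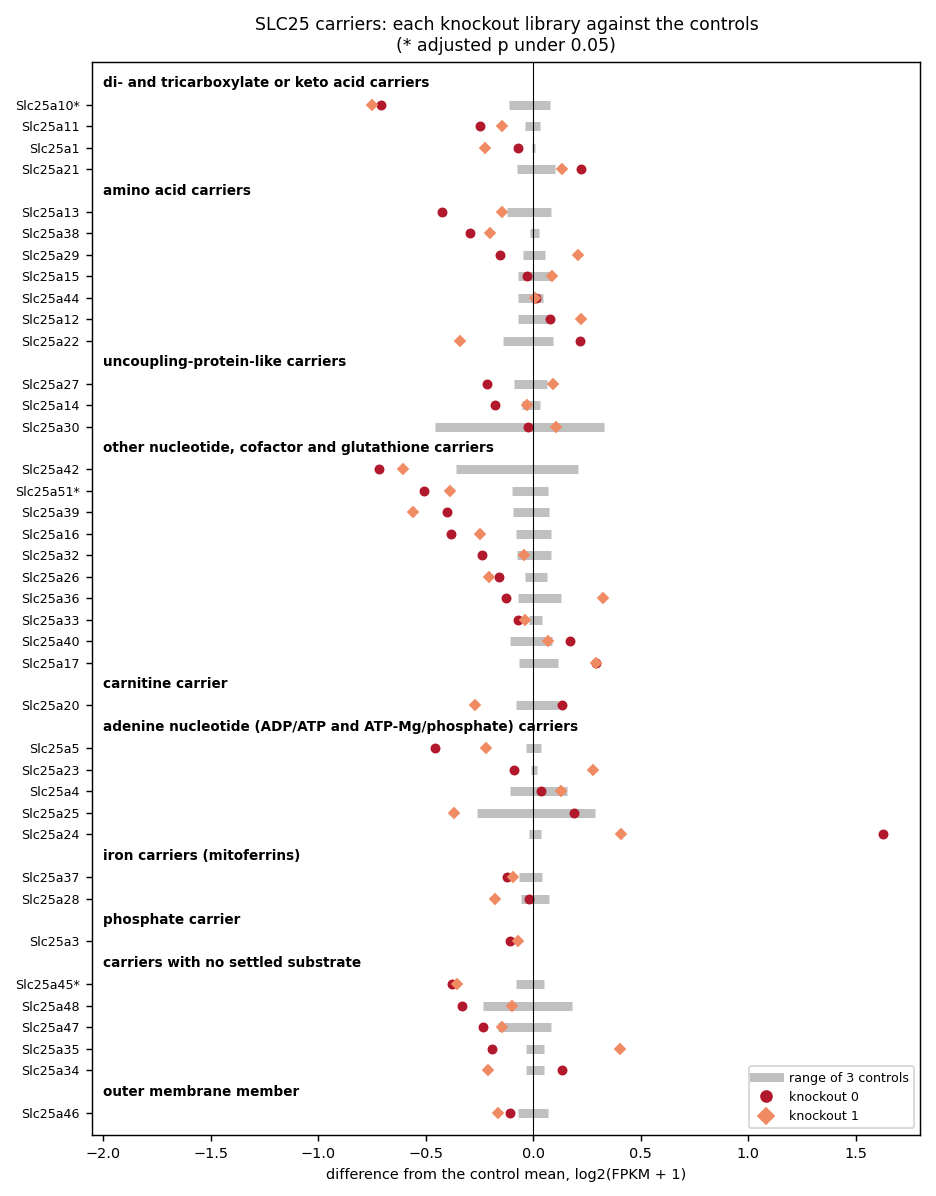
Difference of each knockout library from the control mean, on the log2(FPKM + 1) scale, for all but 1 of the 40 tested carriers, grouped by what they carry. Circles are knockout 0, diamonds knockout 1, and grey bars the range of the 3 controls around their mean. Slc25a10, Slc25a51 and Slc25a45 carry an asterisk for an adjusted p under 0.05, and Slc25a24 in knockout 0 lies farthest from the controls, at 1.62.

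Among the 4 carriers of di- and tricarboxylates 1 fell and 3 did not pass, and their summed FPKM was 81.2% and 79.99% of the control mean in knockout 0 and 1. Slc25a10, which fell, encodes the dicarboxylate carrier, an exchanger of malate or succinate for phosphate. It stood at 110.2, 96.3 and 107 FPKM in the controls and at 63.5 and 61.6 in the knockout libraries. The knockout libraries lay close together and well under the lowest control. The log2 fold change was -0.73 (95% interval -0.94 to -0.51, SE 0.0860, limma adjusted p = 0.0207), and the knockout mean was 59.9% of the control mean. Slc25a10 passed in 11 of 15 other settings but not without control 0 (adjusted p = 0.120) or control 2 (adjusted p = 0.159), nor with no filter on low values (adjusted p = 0.0548). An exact permutation over libraries gave p = 0.1, which is the least that 3 and 2 libraries allow. The gene (ENSMUSG00000025792.9, mm10 chr11:120491840-120499187, plus strand) shares 6.60% of its exon bases with an antisense gene, Gm11788, and since the strandedness of the counting is not known, reads of the pair cannot be told apart.

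The other carriers of this group differed by less. Slc25a11, which exchanges 2-oxoglutarate for malate in the malate-aspartate shuttle, was at 117, 119 and 113 FPKM in the controls and 97.7 and 105 in the knockout libraries (log2 -0.20, limma adjusted p = 0.159). Slc25a1, the citrate carrier, was at 83.1, 83.5 and 83.9 against 79.6 and 71.4 (log2 -0.15, limma adjusted p = 0.269). In both genes the knockout values were under every control by small margins, and 8.92% of the exon bases of Slc25a11 are shared with Rnf167 on the opposite strand. Slc25a21, the carrier of 2-oxoadipate, was above every control, at 16.9, 18.5 and 16.2 against 20.2 and 18.9 (log2 0.18, limma adjusted p = 0.216).

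Of the 11 carriers of other nucleotides, cofactors and glutathione 1 fell and 10 did not pass, and the summed FPKM was 81.4% and 80.2% of the control mean in knockout 0 and 1. Slc25a39, described below, made up 427 of the 775 FPKM of this sum in the controls, so the sum mostly follows that carrier. Slc25a51, which fell, encodes the carrier that brings NAD into mitochondria. Its FPKM values were 78.2, 71.3 and 80.3 against 53.4 and 58.2, with no overlap. Its log2 fold change was -0.45 (95% interval -0.67 to -0.23, SE 0.0870, limma adjusted p = 0.0471), close to the threshold. It passed in 6 of 15 other settings. It missed the threshold without 1 of the controls or knockout 0 (adjusted p = 0.178, 0.0910 and 0.213 for control 0, 1 and 2 in turn and 0.0783 for knockout 0) and when rescaled to TPM (adjusted p = 0.0871). The gene is ENSMUSG00000045973.18, mm10 chr4:45395923-45408766, minus strand.

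Slc25a39, the third most abundant carrier, came just short of the threshold. With its relative Slc25a40 it is known as the importer of glutathione into mitochondria. It stood at 449, 399 and 433 FPKM against 322 and 289. Both knockout values were under the lowest control by more than the range of the controls. The log2 fold change was -0.48 (95% interval -0.72 to -0.24, SE 0.0971, limma adjusted p = 0.0520), with 0.0440 among genes with a mean of at least 5 FPKM, in a range of 0.0440 to 0.285 over the settings. Slc25a40, at far lower levels, was at 6.13, 6.46 and 5.52 against 6.92 and 6.37 (log2 0.12, limma adjusted p = 0.410), and its groups overlapped.

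The carriers linked to coenzyme A included both directions. Slc25a42, which exchanges coenzyme A for adenine nucleotides, was at 44.7, 29.9 and 42.9 FPKM in the controls and 23.1 and 25.03 in the knockout libraries. Control 1 lay between the other controls and the knockout libraries. The log2 fold change of -0.66 (SE 0.185) did not pass (limma adjusted p = 0.0941), and without control 1 it was -0.84 (adjusted p = 0.0438, in a range of 0.0438 to 0.344). Slc25a16, a carrier linked to coenzyme A, was at 61.8, 55.05 and 58.00 against 44.4 and 48.8 (log2 -0.32, limma adjusted p = 0.0885), both knockout values under every control. Slc25a17, a carrier of coenzyme A, FAD and NAD in the membrane of peroxisomes, was at 74.5, 84.6 and 75.5 in the controls and 95.8 in each knockout library. It lay above every control without passing (log2 0.29, SE 0.0849, limma adjusted p = 0.0998).

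Further carriers of this group differed by small margins or split the knockout libraries. Slc25a26, which carries S-adenosylmethionine, was at 10.4, 11.1 and 10.2 FPKM against 9.34 and 9.01, both under every control (log2 -0.18, limma adjusted p = 0.153). Of the pyrimidine nucleotide carriers, Slc25a33 was at 7.37, 7.36 and 7.74 against 7.07 and 7.27, also under every control. Slc25a36 was at 29.1, 33.1 and 28.7 in the controls, with 27.6 for knockout 0 and 38.1 for knockout 1. Slc25a33 shares 14.9% of its exon bases with an antisense gene, Gm13068. Slc25a32, tied to folate and FAD, had a log2 difference of -0.14 (limma adjusted p = 0.383).

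**Figure D2:**
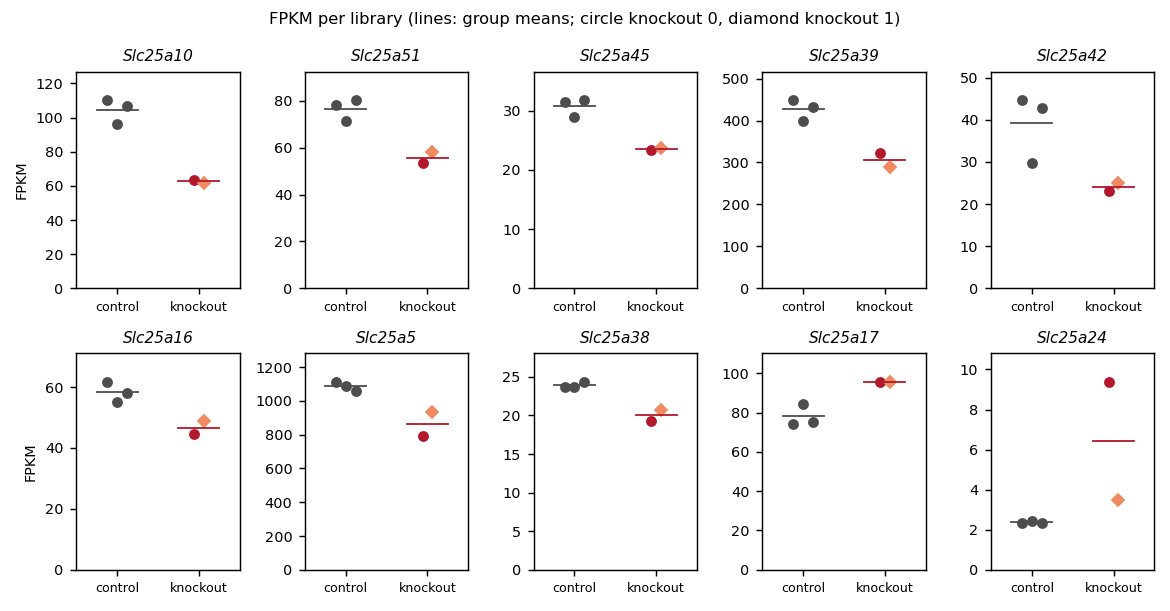
FPKM in each library for the 10 carriers with the lowest p, with axes from 0. Grey circles are the 3 controls, the red circle is knockout 0, the orange diamond knockout 1, and lines are group means. In 8 panels both knockout values lie under every control, and in Slc25a17 and Slc25a24 above.

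The adenine nucleotide carriers held 40.2% of the family's FPKM in the controls, and none of the 5 tested passed by limma. At an unadjusted limma p under 0.05, 1 was higher (Slc25a24) and 1 lower (Slc25a5), against 12.5% and 16.6% of all genes. Slc25a5 and Slc25a4 encode ADP/ATP carriers, which send ATP out of the matrix. Slc25a5 was at 1115, 1086 and 1060.3 FPKM in the controls and 792 and 933 in the knockout libraries. Both were lower than every control, knockout 0 by more. The log2 fold change was -0.34 (95% interval -0.60 to -0.073, SE 0.106, limma adjusted p = 0.113), and without knockout 1 it was -0.46 (adjusted p = 0.0336, in a range of 0.0336 to 0.402). Slc25a4 was at 302, 363 and 315 against 334 and 356, within the range of the controls (log2 0.082, limma adjusted p = 0.657). Slc25a5 is X-linked (ENSMUSG00000016319.3, mm10 chrX:36795651-36798807, plus strand) and has a transcribed pseudogene copy, Slc25a5-ps, so that reads of near-identical sequence may be shared and its value is uncertain.

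The ATP-Mg/phosphate carriers, which respond to calcium and adjust the adenine nucleotide content of the matrix, went separate ways. Slc25a24 was at 2.32, 2.46 and 2.34 FPKM in the controls, with 9.39 for knockout 0 and 3.47 for knockout 1. Both knockout libraries were above the controls, knockout 0 by far. A fitted log2 fold change of 1.02 (95% interval 0.15 to 1.88, SE 0.346) did not pass (limma adjusted p = 0.132). With knockout 1 left out it was 1.62 (adjusted p = 0.00127) and with knockout 0 left out 0.41 (adjusted p = 0.0445), in fits that take a lone library to vary like the controls, and adjusted p ran up to 0.348 over the settings. Slc25a24 was highest in knockout 0, as were the summed injury markers (305.3 FPKM) and macrophage markers (234.3 FPKM), and their part in the result was not tested. Slc25a23 was at 41.2, 42.1 and 41.4 in the controls, with 39.01 for knockout 0 and 50.7 for knockout 1, and Slc25a25 at 29.1, 19.6 and 23.3, 27.2 and 18.1 (limma adjusted p = 0.644 and 0.825). Slc25a31, the ADP/ATP carrier of germ cells, and Slc25a41 stayed under 1 FPKM.

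Slc25a3, the phosphate carrier that supplies ATP synthase, was the second most abundant member and varied least between controls, with a coefficient of variation of 0.0512%. It was at 680.4, 679.7 and 680.0 FPKM in the controls and 631 and 648 in the knockout libraries. Although the groups did not overlap, the log2 fold change of -0.089 (95% interval -0.28 to 0.11, SE 0.0780) did not pass (limma adjusted p = 0.494).

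None of the 7 tested amino acid carriers passed by limma. Against 16.6% of all genes, 1 of the 7 was lower at an unadjusted limma p under 0.05. That carrier was Slc25a38, the glycine carrier needed for heme synthesis, at 23.7, 23.7 and 24.4 FPKM against 19.3 and 20.7 (log2 -0.25, limma adjusted p = 0.0869, lower in both knockout libraries than in any control). The aspartate/glutamate carriers of the malate-aspartate shuttle pointed opposite ways. Slc25a13, citrin, was at 45.8, 39.6 and 44.3 against 31.9 and 38.95 (log2 -0.28, limma adjusted p = 0.178). Slc25a12, aralar, was at 31.4, 29.5 and 28.2 against 31.3 and 34.8 (log2 0.15, limma adjusted p = 0.297), and its groups overlapped.

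The remaining amino acid carriers showed no shared direction. Slc25a15, the ornithine carrier of the urea cycle, was the most abundant of them, at 75.6, 72.3 and 80.5 FPKM against 74.6 and 80.7. Slc25a22, a glutamate carrier, was at 11.98, 10.1 and 11.6 in the controls, with 13.2 for knockout 0 and 8.62 for knockout 1. Slc25a18, the other glutamate carrier, stayed between 0.0337 and 0.187. Slc25a44, which carries branched-chain amino acids, was at 16.7, 15.6 and 16.95 against 16.5 and 16.5, and Slc25a29, a carrier of basic amino acids, at 3.25, 3.56 and 3.37 against 2.95 and 4.08.

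The mitoferrins, which bring iron into mitochondria, and the carnitine carrier did not pass. Slc25a28 was at 32.6, 30.5 and 29.7 FPKM against 30.5 and 27.3, and Slc25a37 at 13.2, 12.3 and 13.3 against 11.8 and 12.004 (limma adjusted p = 0.478 and 0.338). Slc25a37 was lower in both knockout libraries by a small margin, whereas Slc25a28 overlapped. Slc25a20, which brings acylcarnitines in for fatty acid oxidation, was at 44.2, 39.7 and 38.4 in the controls, with 44.8 for knockout 0 and 33.5 for knockout 1 (limma adjusted p = 0.784).

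Among the 5 tested carriers with no settled substrate Slc25a45 fell and 4 did not pass. Slc25a45 was at 31.4, 28.9 and 31.7 FPKM in the controls and 23.4 and 23.7 in the knockout libraries. The knockout values were nearly equal and both under the lowest control. In log2 terms the change was -0.37 (95% interval -0.55 to -0.18, SE 0.0722, limma adjusted p = 0.0487), close to the threshold. Slc25a45 passed in 5 of 15 other settings and in none that left out a control (adjusted p = 0.184, 0.0929 and 0.229 without control 0, 1 and 2) or knockout 0 (adjusted p = 0.0730), nor when rescaled to TPM (adjusted p = 0.0944). The gene is ENSMUSG00000024818.15, mm10 chr19:5877808-5885878, plus strand.

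The other tested carriers of this kind overlapped between the groups. Slc25a48 was at 11.95, 8.72 and 10.9 FPKM against 8.09 and 9.70, and Slc25a47 at 0.920, 1.28 and 1.27 against 0.825 and 0.939. Slc25a34 was at 14.4, 13.5 and 13.7 in the controls, with 15.3 for knockout 0 and 11.9 for knockout 1. Slc25a35 shares 31.3% of its exon bases with Rangrf on the opposite strand, so its values of 11.8, 11.3 and 11.1 in the controls, with 9.85 for knockout 0 and 15.4 for knockout 1 are uncertain, and without knockout 0 it passed as higher.

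The uncoupling-protein-like carriers and the outer membrane member did not pass. Slc25a30, known as the kidney mitochondrial carrier, was at 48.4, 27.7 and 42.03 FPKM against 37.7 and 41.3, with a coefficient of variation of 26.9% among controls, the largest of the tested members. Slc25a14 was at 4.19, 4.49 and 4.45 against 3.74 and 4.26, and Slc25a27 at 1.70, 1.93 and 2.008 against 1.48 and 2.06. Slc25a46, which sits in the outer membrane and acts in mitochondrial shape, was at 22.1, 21.02 and 19.99 against 19.4 and 18.7, slightly under every control (limma adjusted p = 0.274).

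Of the 4 X-linked carriers none passed by limma and 2 were too low to be tested. Slc25a5 was under every control in both knockout libraries (limma adjusted p = 0.113), and Slc25a14 overlapped. Slc25a43 was at 0.430, 0.354 and 0.500 FPKM against 0.731 and 0.640, and Slc25a53 at 0.265, 0.329 and 0.284 against 0.371 and 0.354. Both of these untested carriers lay above every control. For these genes too, genotype label and sex of the RNA cannot be told apart.

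In 8 of the 40 tested carriers (20%) 1 knockout library lay above every control and the other below every control, against 14.3% of all tested genes. Slc25a20, Slc25a22 and Slc25a34 were high in knockout 0 and low in knockout 1. Slc25a23, Slc25a27, Slc25a29, Slc25a35 and Slc25a36 were low in knockout 0 and high in knockout 1. For these carriers the mean of the knockout libraries describes neither of them.

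Ratios of related carriers within a library do not depend on how libraries were scaled. Of 9 pairs compared, 5 had ratios that did not overlap between the groups. The share among ratios of other gene pairs was not computed, and among single tested genes 48.2% did not overlap. Each of the 5 had an exact permutation p of 0.1, two-sided, and a Benjamini-Hochberg adjusted exact p of 0.18 over the 9 pairs, so none could pass with this number of libraries. The ratio of Slc25a4 to Slc25a5 was 0.271, 0.334 and 0.297 in the controls and 0.421 and 0.382 in the knockout libraries, a log2 difference of 0.42 against a control SD of 0.151. The ratio of Slc25a12 to Slc25a13 was 0.687, 0.746 and 0.636 in the controls and 0.984 and 0.893 in the knockout libraries. Both ratios were higher in each knockout library than in any control.

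Among the other ratios 3 were lower in both knockout libraries. Slc25a10 to Slc25a11 was 0.942, 0.811 and 0.944 in the controls and 0.650 and 0.587 in the knockout libraries. Slc25a39 to Slc25a40 was 73.1, 61.9 and 78.4 in the controls and 46.6 and 45.5 in the knockout libraries, with no overlap. Slc25a23 to Slc25a24 was 17.2 to 17.8 in the controls, with 4.15 for knockout 0 and 14.6 for knockout 1, so its log2 difference of -1.17 was -0.26 without knockout 0 and -2.08 without knockout 1. The remaining ratios overlapped. Slc25a28 to Slc25a37 was 2.24 to 2.49 in the controls, with 2.59 for knockout 0 and 2.27 for knockout 1, and Slc25a33 to Slc25a36 was 0.222 to 0.270 in the controls, with 0.256 for knockout 0 and 0.191 for knockout 1. Slc25a23 to Slc25a25 was 1.42 to 2.15 in the controls, with 1.43 for knockout 0 and 2.80 for knockout 1. The ratio of Slc25a18 to Slc25a22 rests on a carrier near 0 and was 0.00992 to 0.0156 in the controls, with 0.00256 for knockout 0 and 0.0143 for knockout 1.

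**Figure D3:**
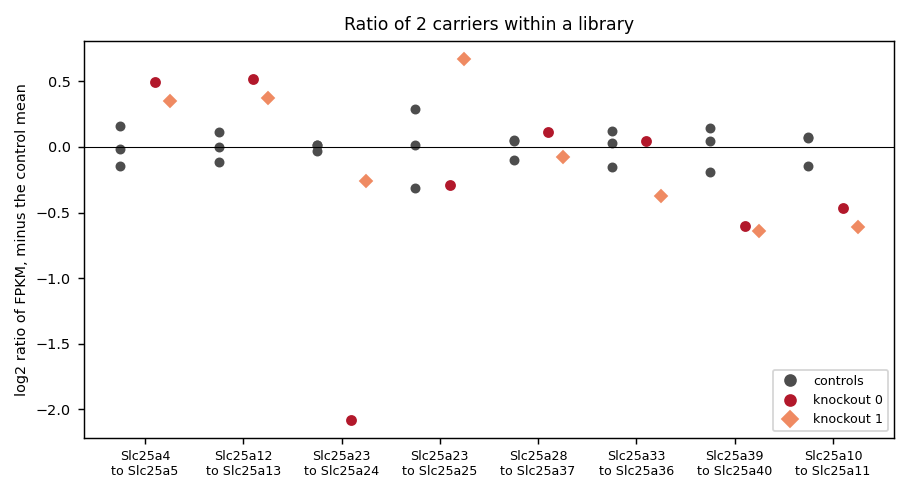
Log2 ratio of the FPKM of 2 carriers within each library, minus the control mean, for 8 of the 9 pairs (Slc25a18 to Slc25a22 is left out because Slc25a18 is near 0). Grey circles are the 3 controls, red circles knockout 0 and orange diamonds knockout 1. Slc25a23 to Slc25a24 reaches -2.08 in knockout 0, and 4 other pairs stand apart from the controls in both knockout libraries.

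Other genes of mitochondrial transport were set beside the carriers: relatives under other symbols, the import pathway, other channels and carriers, and enzymes that use what the carriers bring. Of 42 such genes 41 were tested, and 0 rose, 6 fell and 35 did not pass (limma adjusted p under 0.05), or 14.6% against 6.34% of all tested genes. The median log2 difference was -0.23 against -0.016 over all genes, and 36 of 41 were negative, against 53% of all genes. Without overlap between the groups 26 of 41 were lower and 4 of 41 higher. Of all 12640 tested genes 3320 (26.3%) were lower and 2769 (21.9%) higher without overlap. Rescaled to TPM 3 of 41 passed, against 696 of all 12640 tested genes. Of all 12640 tested genes 37, 155 and 36 passed by limma without control 0, 1 and 2, and none of these 41 did. Without knockout 1 it was 12, and without knockout 0 it was 6, of which Timm9, Mpc1 and Nfs1 were among the 6 named below.

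In the pathway that imports the carriers, all 11 genes had a negative log2 difference, as did 53% of all genes. Of the 11, 2 fell and 9 did not pass, against 3.62% of all genes that fell. Timm9, a chaperone of the space between the membranes, fell from 69.6, 61.2 and 62.2 FPKM in the controls to 38.98 and 32.3 in the knockout libraries (log2 -0.84, SE 0.111, limma adjusted p = 0.0255). Its knockout mean was 55.4% of the control mean. Timm22, the channel of the inner membrane that inserts the carriers, fell from 13.3, 13.9 and 14.3 to 10.7 and 10.7 (log2 -0.34, limma adjusted p = 0.0461). Timm10, the partner of Timm9, was at 40.4, 41.2 and 41.7 against 34.4 and 33.7 (limma adjusted p = 0.0704), under every control. The receptor Tomm20 and the TIM22 subunit Timm29 overlapped between the groups. The other 9 genes of the pathway were lower without overlap, as were 26.3% of all genes.

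Both subunits of the mitochondrial pyruvate carrier, which belongs to another protein family, were under every control. Mpc1 fell from 496, 473 and 449 FPKM to 339 and 325 (log2 -0.51, limma adjusted p = 0.0374), and Mpc2 was at 449, 478 and 493 against 292 and 357 (log2 -0.55, limma adjusted p = 0.0552). Of the voltage-dependent anion channels, pores of the outer membrane, Vdac1 fell from 518, 488 and 538 to 367 and 388 (log2 -0.45, limma adjusted p = 0.0475). Vdac2 and Vdac3 overlapped, at 152 to 175 and 122 to 129 in the controls, with 163 and 122 for knockout 0 and 150.3 and 110.3 for knockout 1. None of the 6 genes of calcium entry and exchange passed by limma. At an unadjusted limma p under 0.05, 2 of the 6 were lower, against 16.6% of all genes. The lowest p of them was that of Letm1, an ion exchanger of the inner membrane, at 63.5, 55.8 and 61.1 against 41.9 and 46.4 (limma adjusted p = 0.0542).

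Of the 7 users of iron and glycine 2 fell and 5 did not pass, against 3.62% of all genes that fell. Nfs1, the cysteine desulfurase of iron-sulfur cluster assembly, fell from 87.1, 75.4 and 77.99 FPKM to 52.1 and 52.2 (log2 -0.61, limma adjusted p = 0.0279). Iscu, the scaffold on which the clusters are built, fell from 296, 297 and 279 to 222 and 218 (log2 -0.40, limma adjusted p = 0.0463). In both the knockout values were nearly equal and under every control.

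No enzyme of the carnitine and malate-aspartate shuttles passed by limma. At an unadjusted limma p under 0.05, 4 of 8 were lower and 1 higher, against 16.6% and 12.5% of all genes. Cpt2, which works on the matrix side of Slc25a20, was at 83.4, 70.8 and 74.9 FPKM against 57.6 and 45.6 (log2 -0.56, limma adjusted p = 0.0643). Crat, carnitine acetyltransferase, was at 46.3, 40.2 and 40.4 against 33.9 and 32.98, and Cpt1a at 108, 96.5 and 94.6 against 91.6 and 78.4. All of these were under every control, unlike Cpt1b, at 12.8, 9.56 and 12.1 in the controls, with 7.06 for knockout 0 and 13.5 for knockout 1. The malate dehydrogenases Mdh1 and Mdh2 were at 819 to 851 and 410.2 to 439 in the controls, with 613 and 324 for knockout 0 and 708 and 338 for knockout 1. Of the aspartate aminotransferases, Got1 was above every control, at 65.5, 63.3 and 66.00 against 73.8 and 84.3, and Got2 below, at 178, 189 and 181 against 163 and 174 (limma adjusted p = 0.108 and 0.381).

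Of the 4 tested relatives under other symbols none passed by limma. At an unadjusted limma p under 0.05, 2 of the 4 were lower, against 16.6% of all genes. Ucp1, the uncoupling protein of brown fat, was at 3.81, 1.38 and 3.12 FPKM in the controls, with 0.0275 for knockout 0 and 1.40 for knockout 1. The 4 fat markers, Ucp1 among them, summed to 4.51 to 11.96 FPKM in the controls, with 0.149 for knockout 0 and 2.93 for knockout 1, and the part of fat in this was not tested. Ucp2, a relative found in many tissues and in macrophages, was at 25.2, 21.5 and 22.9 in the controls, with 35.4 for knockout 0 and 19.6 for knockout 1. The outer membrane proteins Mtch2 and Mtch1 were at 94.4, 87.8 and 85.9 against 76.3 and 66.9 and at 103, 111 and 103 against 99.1 and 106 (limma adjusted p = 0.0976 and 0.754). Ucp3 stayed between 0.0970 and 0.189.

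**Figure D4:**
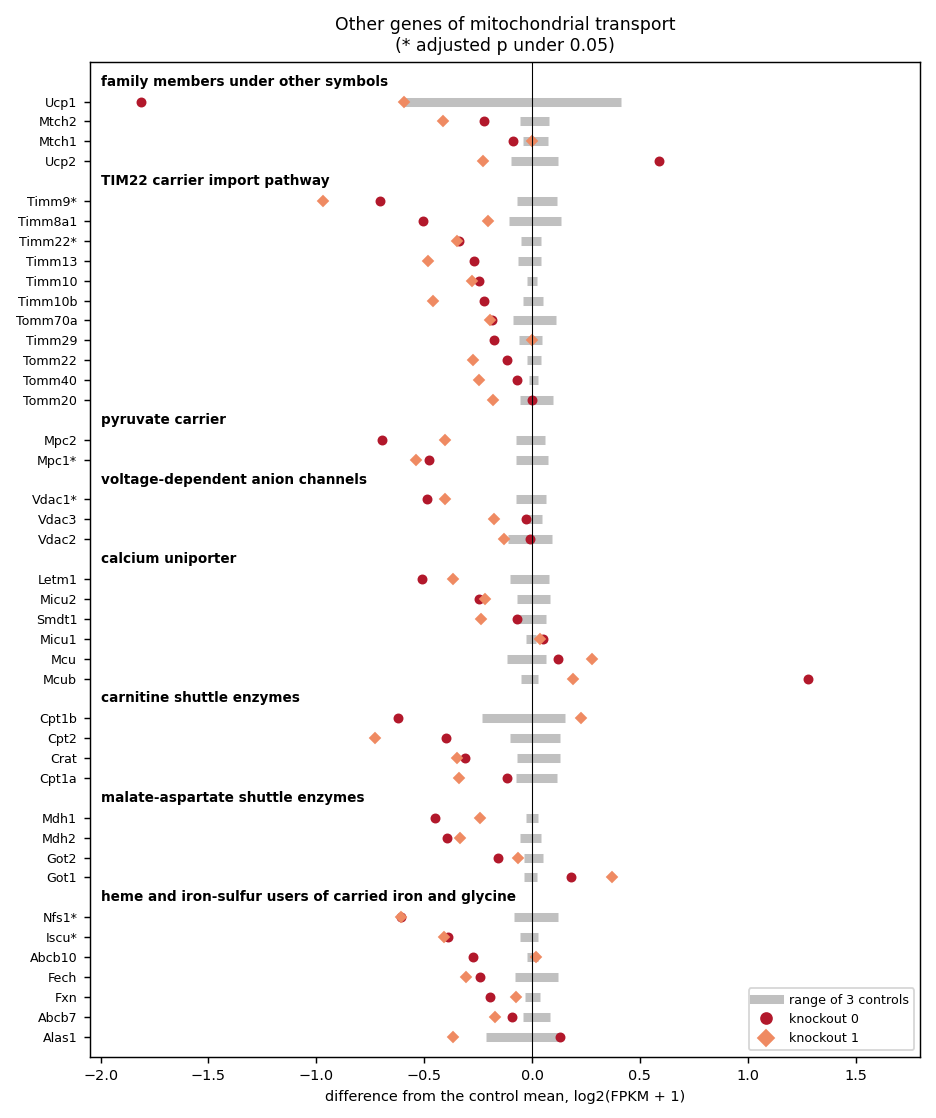
Difference of each knockout library from the control mean, on the log2(FPKM + 1) scale, for 41 other genes of mitochondrial transport. Circles are knockout 0, diamonds knockout 1, grey bars the range of the 3 controls, and asterisks an adjusted p under 0.05. All 11 genes of the import pathway have a negative fitted difference, as do 53% of all tested genes. Timm9, at -0.71 and -0.97, is the lowest of the 11.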

How the data were processed

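RNA of whole kidneys was sequenced in 5 libraries, and the authors deposited 1 table of FPKM per gene and library. Per the labels' protocols, RNA was taken up in TRIzol and 1 µg was made into a library with an Illumina mRNA-seq kit. The submitters' processing notes name bcl2fastq and the mm10 build. Aligner, FPKM program, annotation and strandedness: not given in the sources used here. Low values fell on steps, as whole fragments would give, but the steps did not yield the relative depth, so depth is unknown and no interval that needs it is given. No value column lacked a library (0).

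Groups and replicate numbers came from the titles. Since nothing says that libraries came from separate animals, p-values reflect only the spread of these samples, possibly technical. Genes with a mean of at least 1 FPKM were tested on log2(FPKM + 1), a scale that understates changes of low genes, with limma 3.58.1 in R 4.3.3 (variance trend on, two-sided, Benjamini-Hochberg over 12640 rows, threshold 0.05); the fit was tested on simulated data. Single values had an exact permutation test over libraries. Positions are from GENCODE M21 (mm10), in which all 47 carriers matched. Timm29, Mcub and Adgre1 stand in the table under older symbols (1810026J23Rik, Ccdc109b and Emr1). Python 3.11.15, numpy 2.4.6, pandas 2.3.3 and matplotlib 3.10.9 were used.

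The rule for named carriers took those that passed, the 8 with the highest mean, the 8 largest differences without overlap, those at 0 in 1 library and at 1 FPKM or more in another (none), members of the pairs and X-linked ones, and of the other genes those that passed and all of lists of 5 or fewer. The values of 1 carrier are not reported here. Other carriers, Timm10, Timm29, Tomm20 and Letm1 were named after their values were seen. The members, lists and tests were chosen with earlier results of these data known. Alternatives were another pseudocount, other filters, scalings and variance models, the replicate number as a block, leaving out genes listed at 0 or each library in turn, and a threshold of 0.1.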

Additional observations from a re-analysis of the deposited data

How the results depend on the processing

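Slc25a10, Slc25a51 and Slc25a45, the 3 carriers that fell, kept a negative difference in all 15 refits. In refits that changed only the filter or the variance model, that difference could not change. The count of 3 was 0 with no filter on low values, 1 when rescaled to TPM, 1 after quantile normalization and 8 at an adjusted p under 0.1. It ranged from 0 to 6 when 1 library was left out. By limma 12 of 47 carriers had an unadjusted p under 0.05 with no filter, against 4659 of 23997 genes. Without control 0 it was 7 of 40, against 2378 of 12640, and without control 2 it was 6 of 40, against 2140 of 12640. The count of 6 other transport genes was 1, 3, 3 and 16 in the first 4 of these settings, and ranged from 0 to 12 over the libraries left out. The count of 802 genes was 247 with no filter and 2044 at an adjusted p under 0.1, and ranged from 36 (without control 2) to 2599 (without knockout 1). Of all calls 43% were higher, and 63.4% when rescaled to TPM, 57.1% with no filter, and 49.1% to 86.5% with 1 library left out. The knockout mean of the summed FPKM was 87.1% of the control mean, 92.3% when rescaled to TPM, and 84.8% to 89.5% with 1 library left out. The 5 pairs without overlap were 5 to 7 with 1 library left out.

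With the replicate number as a block, 0 carriers passed by limma, 0 other transport genes and 28 genes in all. In that fit 4 of 40 carriers had an unadjusted limma p under 0.05, against 1862 of 12640 genes. No knockout library has number 2, so the log2 differences of this fit equal those without control 2 (Slc25a10 -0.71 in both). The labels do not say that a number pairs libraries. Deviations of same-numbered libraries from their group means correlated at 0.0863 for number 0 and 0.00236 for number 1. Control 2 and knockout 1 gave 0.0918, and the deviations of 2 knockout libraries always mirror each other. These correlations therefore cannot decide whether a number pairs libraries.

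Among carriers that did not pass, the sign turned for Slc25a22 (log2 0.012) and Slc25a33 (0.017) when rescaled to TPM. With 1 library left out, Slc25a22 ranged from -0.34 to 0.22, Slc25a23 from -0.090 to 0.28, Slc25a25 from -0.37 to 0.19 and Slc25a36 from -0.13 to 0.32. The cause of these changes was not tested. Of 358 refits of 24 carriers, 321 kept the direction and the side of the threshold. Refits that changed only the filter or the variance model could not turn the direction, so this tally does not measure how stable it is.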
